A study of Mus musculus with 9 samples.

Results

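Cholesterol, fatty acid and lipid storage genes were followed through 3 layers of growth plate cartilage from the proximal tibia of wild-type newborns (age 0 days) of the Black Swiss mouse strain. The set holds 50 listed genes out of 18193 genes named on the array: 18 enzymes of sterol synthesis, 5 regulators of the SREBP (sterol regulatory element-binding protein) system, 12 genes of fatty acid synthesis and modification, 5 of fatty acid uptake and carriage, and 10 of lipid droplets, storage and lipolysis. For each gene the single-gene probe set of highest mean over the 9 arrays was used. Of the 50 genes, 48 had such a probe set and 47 passed the filter on low signal, with Cidec below it. Acat2 and Plin1 were not analysed here.

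The layers are successive stages of cartilage maturation: round chondrocytes, flat chondrocytes stacked in columns, and enlarged hypertrophic chondrocytes beside the bone front. Each layer was cut by hand from frozen sections of 3 litters, and 1 array held 1 layer pooled from 18 to 20 tibiae of a litter, so every comparison has n = 3 litters. Nothing in the protocol selected chondrocytes, and in such bulk samples fewer cells of a type and less RNA per cell cannot be told apart. The layer labels were checked against markers: Prg4, made at the joint surface, gave MAS5 signals of 14144, 13112 and 18770.4 in the round layer, 707, 191 and 256 in the flat layer and 261, 161 and 174 in the hypertrophic layer. Col10a1, the collagen of hypertrophic cells, gave 20, 156 and 240.2 in the round layer, 470.2, 931 and 590.3 in the flat layer and 11228, 12910.4 and 11432 in the hypertrophic layer. Each marker was highest in the layer that its label names.

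Cells make cholesterol from acetyl-CoA through the mevalonate pathway, and fatty acids from the same precursor through acetyl-CoA carboxylase and fatty acid synthase. SREBP factors, held in the endoplasmic reticulum by the Insig proteins and escorted by Scap, switch on both routes when membrane sterol runs low. Fatty acids also enter from the blood, freed by lipoprotein lipase and carried by binding proteins, and what is not burnt or built into membranes is stored as triglyceride in droplets coated by perilipins. Growth plate cartilage has no blood vessels of its own, and inherited defects of late sterol synthesis such as those of EBP and NSDHL disturb the growing skeleton in humans.

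The upstream sequences of 7 genes that the results turn on, and of Hmgcs1, are shown so that letters shared by the sterol genes can be compared with those of a droplet and a carrier gene. They are the 150 bases before the annotated start in RefSeq's promoter table (build GRCm38.p6), written 5′ to 3′ along the gene. Capitals mark the CCAAT box, searched on both strands and therefore also written ATTGG, and the sterol regulatory element letters TCACNCCAC. Hmgcs1, Idi1 and Fabp3 lie on the plus strand, at chr13:119690201-119690350, chr13:8885456-8885605 and chr4:130308588-130308737. Tm7sf2, Msmo1, Ebp, Insig2 and Plin2 lie on the minus strand, at chr19:6067851-6068000, chr8:64733579-64733728, chrX:8193513-8193662, chr1:121332590-121332739 and chr4:86670060-86670209, where Insig2 is the first of 3 entries.
Hmgcs1: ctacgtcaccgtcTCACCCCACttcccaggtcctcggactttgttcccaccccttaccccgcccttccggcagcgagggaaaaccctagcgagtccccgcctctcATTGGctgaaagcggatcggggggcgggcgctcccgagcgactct
Idi1: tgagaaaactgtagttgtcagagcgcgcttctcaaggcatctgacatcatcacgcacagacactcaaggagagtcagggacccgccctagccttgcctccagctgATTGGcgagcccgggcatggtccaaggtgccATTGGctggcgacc
Tm7sf2: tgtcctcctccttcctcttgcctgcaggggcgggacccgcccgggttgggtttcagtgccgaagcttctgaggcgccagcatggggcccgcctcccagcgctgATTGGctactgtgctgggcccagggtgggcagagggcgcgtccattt
Msmo1: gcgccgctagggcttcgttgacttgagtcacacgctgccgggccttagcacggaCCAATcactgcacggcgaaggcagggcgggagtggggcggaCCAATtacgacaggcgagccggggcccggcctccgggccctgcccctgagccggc
Ebp: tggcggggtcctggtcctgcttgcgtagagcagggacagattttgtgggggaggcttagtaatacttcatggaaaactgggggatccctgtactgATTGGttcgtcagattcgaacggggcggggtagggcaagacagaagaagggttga
Insig2: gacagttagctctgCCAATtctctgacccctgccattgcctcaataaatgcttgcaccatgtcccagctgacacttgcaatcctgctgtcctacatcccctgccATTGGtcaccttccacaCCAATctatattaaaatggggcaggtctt
Plin2: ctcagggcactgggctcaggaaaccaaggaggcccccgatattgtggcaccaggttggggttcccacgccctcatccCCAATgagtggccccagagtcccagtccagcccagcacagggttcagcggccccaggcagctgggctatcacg
Fabp3: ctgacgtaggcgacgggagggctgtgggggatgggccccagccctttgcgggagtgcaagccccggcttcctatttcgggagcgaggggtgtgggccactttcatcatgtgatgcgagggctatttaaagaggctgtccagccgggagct

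Over the 250 bases upstream, the CCAAT box stood in 14 of the 15 sterol synthesis enzymes with an entry (93.3%). It stood in 4 of 5 SREBP regulators, 5 of 9 genes of fatty acid synthesis, 1 of 2 of uptake and carriage, and 3 of 7 of droplets and storage. Among all 27025 genes with an entry the share was 37.5%, and among the 9161 of them that were tested on the arrays it was 40.1%. The TCACNCCAC letters were found in 1 member, Hmgcs1, against 1.2% of all genes. The E-box CACGTG stood in 7 of 38 members with an entry (18.4%), against 10.0% of tested genes, and a repeat of AGGTCA with any 1 base between its copies stood in 0 members and in 11 genes in all. These letter matches describe the sequences and do not locate a bound factor.

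Signals are Affymetrix MAS5 intensities, in arbitrary units scaled to a common level on each array, and are not comparable between genes. Differences are log2 differences ± SE from limma on log2(signal + 26) with litter as a block, so a fold understates the change of a dim gene. Rose, fell, higher and lower calls are used only at an adjusted p under 0.05 over all 11313 tested genes. Of the 47 tested members, 19 passed in at least 1 of the 3 comparisons, against 32.7% of all tested genes, 28 passed in none, and 0 passed in all 3. Against the round layer the flat layer had 9 members higher and 1 lower, beside 8.39% and 8.64% of all genes (17.0% in either direction). The hypertrophic layer had 4 higher and 3 lower against the flat layer, beside 6.12% and 5.22% of all genes (11.3% in either direction), and 12 higher and 1 lower against the round layer, beside 12.4% and 12.7% (25.1% in either direction). As shares of the 47 members these were 19.1% and 2.13%, 8.51% and 6.38%, and 25.5% and 2.13%. The comparisons share arrays, so these counts are not independent of each other.

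**Figure D1:**
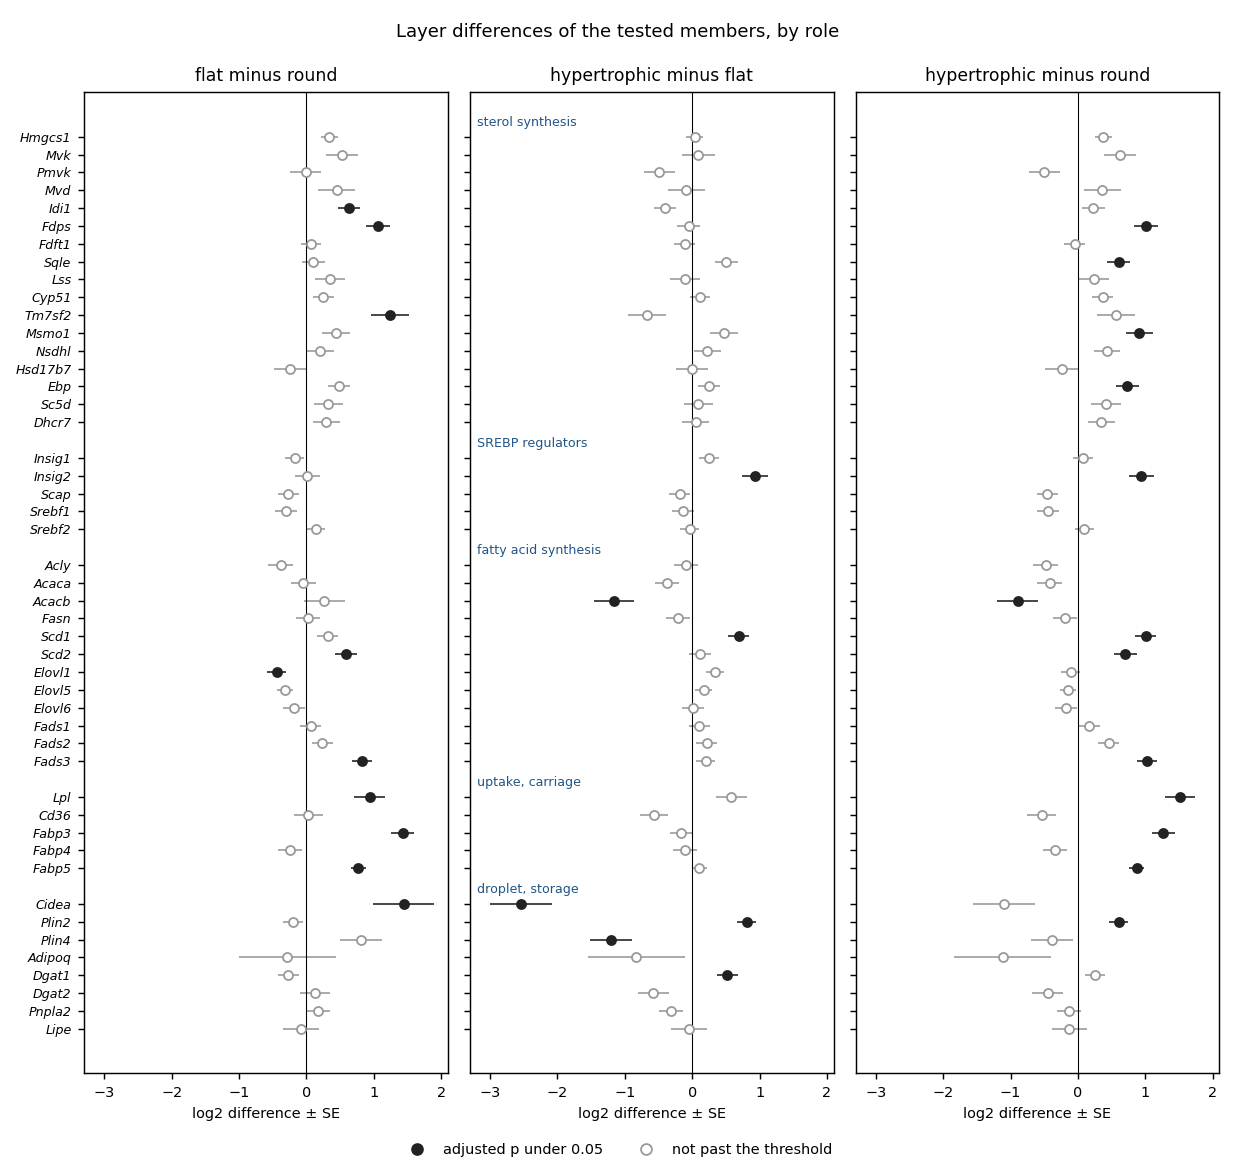
Log2 difference ± SE (x axis, limma, n = 3 litters) of each of the 47 tested members (y axis, grouped by role) in the 3 comparisons of layers, each as the later minus the earlier layer; filled points passed an adjusted p under 0.05. The sterol synthesis enzymes sit mostly right of 0 against the round layer, with 14 of 17 positive for hypertrophic minus round, and Cidea lies farthest left for hypertrophic minus flat at -2.54.

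Some arrays stood apart. The round array of litter 1 had 3′/5′ signal ratios of 4.25 for actin and 2.59 for Gapdh, controls of RNA integrity, while the other 8 arrays lay at 1.45 to 2.06 and 0.922 to 1.28. It gave the highest or lowest of the 9 values for 44.7% of the tested members, against 37.4% of all tested genes. The flat array of litter 3 had the highest summed signal of 22 skeletal muscle markers, 637863, where the other 2 flat arrays had 383544 and 399349. Without both of these arrays the members higher and lower were 8 and 0 for flat against round, 5 and 2 for hypertrophic against flat, and 15 and 1 for hypertrophic against round.

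Skeletal muscle lies against the dissected cartilage, and its markers moved with the layers. In the flat layer 21 of 22 muscle markers rose against the round layer (median log2 difference 1.42), and 18 of 22 fell in the hypertrophic layer against the flat layer (median -1.03). Their summed signal was 160518 to 262645 in the round layer, 383544 to 637863 in the flat layer and 161145 to 385736 in the hypertrophic layer. With the muscle score of each array as a covariate, 251 and 233 genes in all passed as higher and lower for flat against round, where 949 and 977 passed without it. Of the members, 1 (Scd2) then passed as higher and 1 (Acly) as lower for flat against round, 0 passed in either direction for hypertrophic against flat (8 higher and 1 lower at an unadjusted p under 0.05 in limma), and 13 higher and 8 lower passed for hypertrophic against round. The score itself differed between the layers, so this fit separates layer from muscle only in part and has less precision. A call lost in it can come from a smaller difference or from lost precision. Fewer of all genes also passed between the hypertrophic and flat layers in this fit than without the score. Its counts over all genes for hypertrophic against round are not given here, so the 13 and 8 members have no background beside them. For flat minus round, Fads3 went from 0.82 to 1.15 and Lpl from 0.94 to 0.13, and neither passed with the score. The part of muscle in a lost call was not tested.

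Some enzymes of sterol synthesis were lower in the round layer than in the later layers. Of 17 tested enzymes, 3 rose and 0 fell in the flat layer against the round layer, with a median log2 difference of 0.34 where all tested genes had -0.01. In the hypertrophic layer 4 rose and 0 fell against the round layer (median 0.38, all genes 0.01). The higher enzymes were 17.6% for flat against round and 23.5% for hypertrophic against round, beside 8.39% and 12.4% of all genes. The 0 lower stand beside 8.64% and 12.7%. None passed in either direction between the hypertrophic and flat layers (median 0.04, range -0.67 to 0.50), where 0 of 17 compares with 11.3% of all genes. At an unadjusted p under 0.05 in limma, 2 were higher and 2 lower in the hypertrophic layer against the flat layer. With the muscle score as covariate 0 of 17 passed for flat against round (4 higher and 0 lower at an unadjusted p under 0.05), and 4 rose for hypertrophic against round, where Sqle no longer passed and Sc5d did.

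Fdps, which makes farnesyl diphosphate, the branch point towards sterols and protein prenylation, had MAS5 signals of 283, 609 and 431 in the round layer, 671, 993 and 1116 in the flat layer and 681, 909 and 1079 in the hypertrophic layer (litters 1 to 3). Every flat and every hypertrophic array lay above every round array. The flat layer was 2.08-fold higher than the round layer (log2 difference 1.06 ± 0.17, adjusted p = 0.0012) and the hypertrophic layer 2.01-fold higher (1.01 ± 0.17, adjusted p = 0.0011), each in 3 of 3 litters. Both calls held without any 1 array, and Fdps was 1 of 6 members lowest in the round layer by both comparisons, with Scd2, Fads3, Lpl, Fabp3 and Fabp5, a pattern that 4.80% of all genes showed. Averaged with the gene's second probe set, which lay below the filter, the differences were 0.52 and 0.35 and did not pass. Its flat minus round difference was 1.23 with the muscle score as covariate (adjusted p = 0.121). Hypertrophic minus round was 1.05 in that fit and passed (adjusted p = 0.0020).

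Tm7sf2, a sterol C14 reductase, had signals of 295, 255 and 227 in the round layer, 459, 488 and 1174 in the flat layer and 322, 452 and 421 in the hypertrophic layer. All flat arrays were above all round arrays, and the flat array of litter 3 stood far above the rest. Its flat minus round difference of 1.24 ± 0.28 (adjusted p = 0.0096) was no longer past the threshold when that array or the round array of litter 3 was left out, with differences of 0.80 and 0.92. The difference was 0.20 in the fit with the muscle score (adjusted p = 0.899). Tm7sf2 did not pass between the hypertrophic and flat layers (-0.67 ± 0.28, adjusted p = 0.1633), although all hypertrophic arrays lay below all flat arrays.

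Msmo1, the sterol C4 methyl oxidase, had signals of 370.3, 385 and 360.4 in the round layer, 429.5, 574 and 551 in the flat layer and 491, 1115 and 687 in the hypertrophic layer. The 3 hypertrophic arrays were above the 3 round arrays, and litter 2 was highest of all. Hypertrophic minus round was 0.91 ± 0.21 (1.88-fold, adjusted p = 0.0062), and without the hypertrophic array of litter 2 it was 0.66 and no longer passed. The gene's other probe set lay below the filter and differed by -1.02 in this comparison.

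Ebp, the sterol isomerase whose loss causes an X-linked skeletal disorder in humans, had signals of 696, 953 and 953 in the round layer, 1147, 1627 and 948 in the flat layer and 1437, 1629 and 1293 in the hypertrophic layer. Its hypertrophic values lay above all round values and overlapped the flat ones. The hypertrophic layer exceeded the round layer by 0.74 ± 0.17 (1.67-fold, adjusted p = 0.0065), in 3 of 3 litters, and the call held without any 1 array.

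Idi1, the isomerase that starts chain building, ranged from 387 to 888 over the 9 arrays and rose in the flat layer against the round layer (0.63 ± 0.17, adjusted p = 0.0232), with no overlap of those layers. This call was lost when a round or flat array of litter 1 or 2 was left out, with differences of 0.50 to 0.67. Sqle, the squalene epoxidase that controls flux into sterols, ranged from 521 to 1181 and rose in the hypertrophic layer against the round layer (0.61 ± 0.17, adjusted p = 0.0206), again with no overlap. It was lost without any 1 hypertrophic array or without the round array of litter 2 or 3, with differences of 0.47 to 0.67, and in the fit with the muscle score (0.47, adjusted p = 0.0757).

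The other 11 enzymes did not pass in any comparison. Hmgcs1, which commits acetyl-CoA to the pathway, was nearest to the threshold: its signals were 4122, 3611 and 3849 in the round layer, 4893, 5678 and 4185 in the flat layer and 4986, 4998 and 5051 in the hypertrophic layer. All hypertrophic and all flat values lay above the round values, with a hypertrophic minus round difference of 0.38 ± 0.13 (adjusted p = 0.0521). For the same comparison Mvk was at 0.62, Mvd at 0.36, Lss at 0.23, Cyp51 at 0.37, Nsdhl at 0.43, Sc5d at 0.42 and Dhcr7 at 0.35. Pmvk, which phosphorylates mevalonate phosphate, was at -0.50, the squalene synthase Fdft1 at -0.05 and Hsd17b7 at -0.24, so the enzymes of 1 pathway did not all lie on the same side of 0. Other probe sets above the filter lay on the opposite side of 0 for Mvk (-0.18), Sc5d (-0.56), Lss (-0.08) and Fdft1 (0.16). Those of Hmgcs1, Mvd and Cyp51 lay on the same side. Without the round array of litter 1, Hmgcs1 and Mvk passed as higher in the hypertrophic layer against the round layer, Sqle passed as higher in the hypertrophic layer against the flat layer (0.50, adjusted p = 0.0339), and Idi1 lost its call for flat against round.

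**Figure D2:**
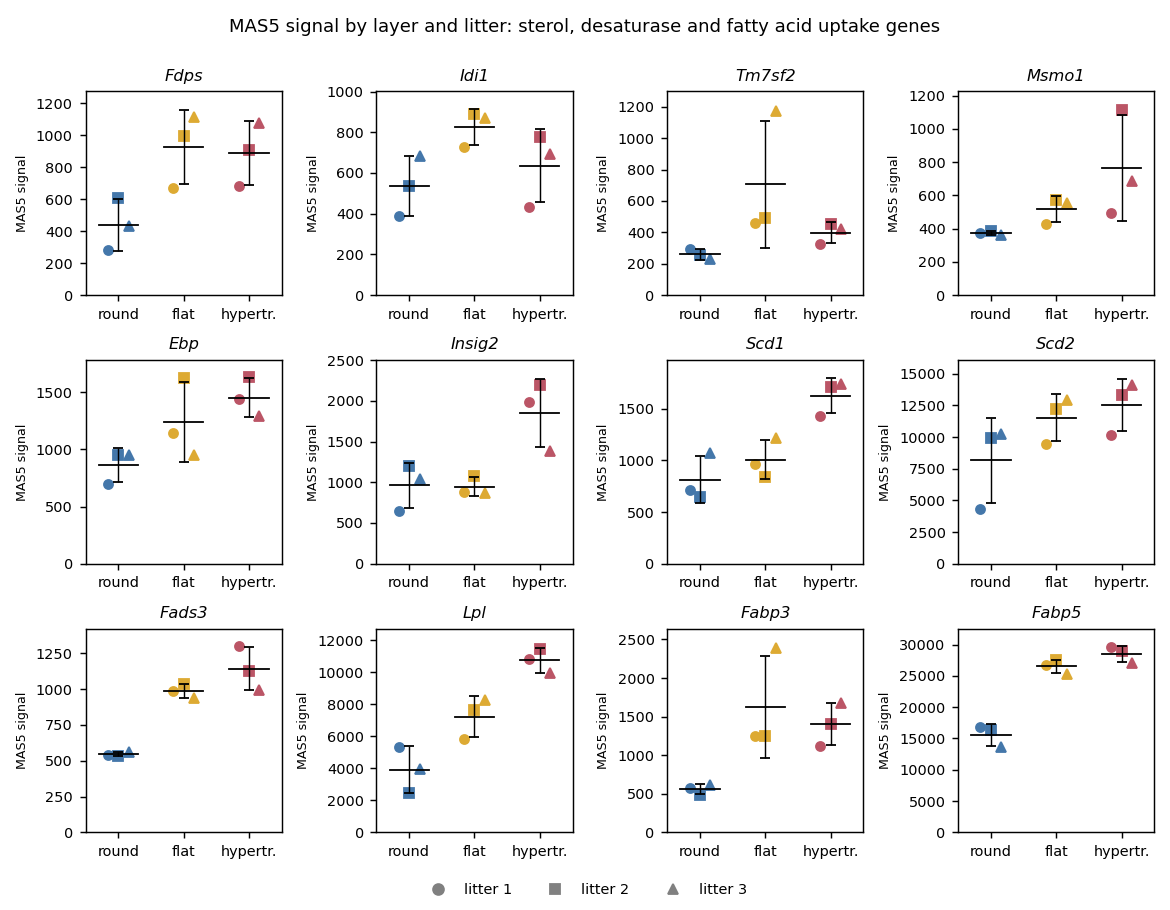
MAS5 signal in arbitrary units (y axis) of 12 members in each layer (x axis), 1 point per array with the symbol giving the litter; horizontal lines are layer means and bars the SD (n = 3). In the panels of Fdps, Fads3, Fabp3 and Fabp5 no flat or hypertrophic point reaches down to a round point, and in the panel of Scd1 the hypertrophic points stand above those of both other layers.

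Among the SREBP regulators, 1 of 5 rose in the hypertrophic layer against each of the other layers, and 0 of 5 passed between flat and round layers, also at an unadjusted p under 0.05 in limma. This share of 20% stands beside 6.12% of all genes higher against the flat layer and 12.4% higher against the round layer. Insig2, which keeps SREBP in the endoplasmic reticulum, had signals of 653, 1197 and 1036 in the round layer, 885, 1076 and 874 in the flat layer and 1980.1, 2192 and 1379 in the hypertrophic layer. All hypertrophic arrays exceeded all flat and all round arrays. The difference was 0.93 ± 0.19 against the flat layer (1.91-fold, adjusted p = 0.0078) and 0.94 ± 0.19 against the round layer (1.92-fold, adjusted p = 0.0031), each in 3 of 3 litters. The first was 0.72 and lost its call without the hypertrophic array of litter 1, and the second held without any 1 array. In the fit with the muscle score the difference against the flat layer was 0.23 (adjusted p = 0.703), and that against the round layer was 1.20 and passed.

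Both other Insig2 probe sets above the filter also differed upward in the hypertrophic layer, by 0.91 and 0.95 against the flat layer. Insig2, Scd1 and Plin2 were the 3 members highest in the hypertrophic layer by both comparisons, a pattern of 4.19% of all genes. In the fit with the muscle score none of the 3 passed against the flat layer, and all 3 passed against the round layer. The relative of Insig2, Insig1, itself a target of SREBP, ranged from 821 to 1121 over the arrays and did not pass (0.25 ± 0.14 for hypertrophic minus flat).

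Scap, the escort of SREBP, had signals of 1215, 1011 and 975 in the round layer, 829.9, 873 and 934 in the flat layer and 770.1, 649.9 and 908 in the hypertrophic layer, and all hypertrophic arrays lay below all round arrays. Hypertrophic minus round was -0.45 ± 0.16 for Scap (adjusted p = 0.0543) and -0.44 ± 0.16 for Srebf1 (adjusted p = 0.0683), which encodes the SREBP form that drives fatty acid genes. Srebf2, which encodes the form that drives sterol genes, was at 0.10 ± 0.14. These 3 did not pass, and with the muscle score as covariate Scap and Srebf1 passed as lower.

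In fatty acid synthesis and modification, members moved in both directions. Against the round layer, 2 of 12 rose and 1 fell in the flat layer (median 0.04), and 3 rose and 1 fell in the hypertrophic layer (median -0.13). Between the hypertrophic and flat layers 1 rose and 1 fell (median 0.11). The shares of 12 members were 16.7% higher and 8.33% lower in flat against round, beside 8.39% and 8.64% of all genes, and 25.0% and 8.33% in hypertrophic against round, beside 12.4% and 12.7%. In these comparisons with the round layer the shares of lower members were no larger than those of all genes. For hypertrophic against flat the shares were 8.33% higher and 8.33% lower, beside 6.12% and 5.22% of all genes.

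Scd1, a stearoyl-CoA desaturase that makes oleate, had signals of 717, 649.8 and 1073 in the round layer, 962, 844 and 1214 in the flat layer and 1429.6, 1707 and 1739.6 in the hypertrophic layer. Each hypertrophic array was above all arrays of the other layers. The hypertrophic layer was 2.01-fold higher than the round layer (1.004 ± 0.155, adjusted p = 4.70e-04), a call that held without any 1 array, and 1.61-fold higher than the flat layer (0.69 ± 0.15, adjusted p = 0.0128). The second call was lost without the flat array of litter 2 or the hypertrophic array of litter 1 or 2, with differences of 0.52 to 0.73.

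Scd2, a desaturase of the same family prominent in brain and neonatal tissues, had signals of 4308, 9944 and 10227 in the round layer, 9438, 12178 and 12945 in the flat layer and 10171, 13299 and 14118 in the hypertrophic layer. The round array of litter 1 was far below the other 8, and the layers overlapped. Differences from the round layer were 0.59 ± 0.16 in the flat layer (adjusted p = 0.0282) and 0.71 ± 0.16 in the hypertrophic layer (adjusted p = 0.0075), in 3 of 3 litters each. Without the round array of litter 1, the flat difference was 0.32 and did not pass. That call was also lost without the flat array of litter 1 or 2, and the hypertrophic call without the hypertrophic array of litter 1, at 0.58. Without the round array of litter 1 the hypertrophic difference was 0.44 and still passed. Scd2 was the 1 member higher for flat against round that passed with the muscle score as covariate, at 1.43 (adjusted p = 0.0115).

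Fads3, a member of the fatty acid desaturase cluster, had signals of 538, 536 and 563 in the round layer, 987, 1038 and 934 in the flat layer and 1299, 1129 and 996 in the hypertrophic layer. The 3 round values lay within a narrow band, and all other values were above it. The flat layer was 1.77-fold higher than the round layer (0.82 ± 0.15, adjusted p = 0.0019) and the hypertrophic layer 2.03-fold higher (1.02 ± 0.15, adjusted p = 2.67e-04), and neither call was lost without any 1 array. Its neighbours in the family, Fads1 and Fads2, which put in the double bonds of polyunsaturated fatty acids, were at 0.17 ± 0.16 and 0.45 ± 0.16 for hypertrophic minus round and did not pass, Fads1 being at -0.047 without the round array of litter 1.

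Acacb, the acetyl-CoA carboxylase at the mitochondrial surface whose product restrains fatty acid oxidation, had signals of 325, 249.6 and 182 in the round layer, 249, 258 and 423 in the flat layer and 146, 86.1 and 136 in the hypertrophic layer. All hypertrophic values lay below all others. The hypertrophic layer was 2.24-fold lower than the flat layer (-1.16 ± 0.30, adjusted p = 0.0259) and 1.86-fold lower than the round layer (-0.90 ± 0.30, adjusted p = 0.0456). Acacb was the 1 member lowest in the hypertrophic layer, a pattern of 2.78% of all genes. Both calls were close to the threshold: the first was lost in 5 of 9 fits that left out 1 array (-1.25 to -0.87; the flat arrays of litters 2 and 3 and each hypertrophic array) and the second in 6 of 9 (-0.98 to -0.71; the round arrays of litters 1 and 2, the flat array of litter 2 and each hypertrophic array).

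Elovl1, an elongase of very long chains, had signals of 5547, 3330.4 and 3311 in the round layer, 3578, 3054 and 2209 in the flat layer and 4175, 3631 and 3216 in the hypertrophic layer. Flat and round values overlapped, and the round array of litter 1 was highest of all. The flat layer was lower than the round layer (-0.44 ± 0.14, adjusted p = 0.0445), in 3 of 3 litters. Without the round array of litter 1 the difference was no longer past the threshold, and 5 other arrays (round litter 3, flat litters 1 and 3, hypertrophic litters 2 and 3) also ended the call when left out, with differences of -0.44 to -0.32 over these fits. The probe set is of a class that, by the manufacturer's naming, can bind related transcripts.

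The enzymes that build palmitate did not rise in any layer. For hypertrophic minus round, Acly, which supplies cytosolic acetyl-CoA, was at -0.48 ± 0.18, the cytosolic carboxylase Acaca at -0.42 ± 0.18 and the synthase Fasn at -0.20 ± 0.18, none past the threshold. Fasn ranged from 1699 to 3014 over the 9 arrays. Elovl5 and Elovl6 were at -0.15 ± 0.12 and -0.17 ± 0.16. Without the round array of litter 1, Acly was at -0.20, and its other probe sets above the filter were at -0.065 and 0.31 over all arrays. With the muscle score as covariate, Acly passed as lower than the round layer both in the flat layer (-1.38, adjusted p = 0.0183) and in the hypertrophic layer (-0.75, adjusted p = 0.0016), and Fads2 passed as higher in the hypertrophic layer.

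In the comparisons with the round layer, fatty acid uptake and carriage had the largest share of called members among the 5 role groups. Of 5 genes, 3 rose in the flat layer against the round layer (median 0.77) and the same 3, Lpl, Fabp3 and Fabp5, rose in the hypertrophic layer against the round layer (median 0.88). Between hypertrophic and flat layers 0 of 5 passed (median -0.10), with 1 higher and 1 lower at an unadjusted p under 0.05 in limma. These counts of 3 in 5 stand beside 8.39% and 12.4% of all genes.

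Lpl, the lipase that frees fatty acids from lipoproteins, had signals of 5366, 2448 and 3946 in the round layer, 5829, 7645 and 8249 in the flat layer and 10819.8, 11486 and 9937 in the hypertrophic layer. The layers did not overlap, with the hypertrophic layer highest and the round layer lowest. It was 2.86-fold higher in the hypertrophic than in the round layer (1.52 ± 0.23, adjusted p = 3.53e-04), which held without any 1 array, and 1.91-fold higher for flat against round (0.94 ± 0.23, adjusted p = 0.0128). The flat call was lost without the round array of litter 2 or the flat array of litter 2 or 3, with differences of 0.59 to 0.83. Hypertrophic minus flat was 0.58 ± 0.23 (adjusted p = 0.1268) and passed when the round array of litter 1 was left out. In the fit with the muscle score, flat minus round was 0.13 (adjusted p = 0.912), and the hypertrophic call against the round layer held.

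Fabp3, the fatty acid binding protein typical of heart and skeletal muscle, had signals of 578, 489 and 619.7 in the round layer, 1242, 1249 and 2388 in the flat layer and 1124, 1410.3 and 1672 in the hypertrophic layer. Every flat and hypertrophic value was above every round value, and the flat array of litter 3, which also had the highest muscle sum, was the highest. Flat minus round was 1.43 ± 0.18 (2.69-fold, adjusted p = 1.65e-04) and hypertrophic minus round 1.27 ± 0.18 (2.41-fold, adjusted p = 2.07e-04), and both calls held without any 1 array. Averaged with a second Fabp3 probe set below the filter, the differences were 0.68 and 0.58 and did not pass. The muscle markers rose in the flat layer, and with their score as covariate flat minus round was 0.76 (adjusted p = 0.269). Hypertrophic minus round was 1.09 in that fit and passed (adjusted p = 5.76e-04).

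Fabp5, the epidermal-type fatty acid binding protein, was a bright signal at 16905, 16293 and 13598 in the round layer, 26797, 27466 and 25348 in the flat layer and 29583, 28903 and 27113 in the hypertrophic layer. Replicates lay close together, and the round layer was separate from both others. The flat layer was 1.71-fold higher than the round layer (0.77 ± 0.11, adjusted p = 4.68e-04) and the hypertrophic layer 1.83-fold higher (0.88 ± 0.11, adjusted p = 1.03e-04), again without loss when any 1 array was left out. A second probe set of Fabp5 differed by 0.86 and 1.17 in these comparisons. Flat minus round was 0.63 in the fit with the muscle score (adjusted p = 0.156). Hypertrophic minus round was 0.84 in that fit and passed (adjusted p = 1.50e-04).

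Fabp4 and Cd36 did not share this pattern. Fabp4, the binding protein of adipocytes, macrophages and capillary endothelium, had signals of 15873, 11734 and 11309 in the round layer, 12931, 7398 and 13386 in the flat layer and 9986, 10532 and 9848 in the hypertrophic layer, and Cd36, a fatty acid translocase of the same cells and of muscle, had 1156, 1620.0 and 1864 in the round layer, 1140.0, 1072 and 3030.0 in the flat layer and 883, 1031 and 1225 in the hypertrophic layer. All hypertrophic Fabp4 values lay below all round values and within the flat range, and hypertrophic Cd36 values overlapped both other layers. Hypertrophic minus round was -0.34 ± 0.18 for Fabp4 (adjusted p = 0.1905) and -0.54 ± 0.21 for Cd36 (adjusted p = 0.0893), neither past the threshold, and flat minus round was -0.24 and 0.03.

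Lipid droplet, storage and lipolysis genes split between the hypertrophic and flat layers. Of 8 tested, 2 rose and 2 fell in the hypertrophic layer against the flat layer (median -0.44), 1 rose in the hypertrophic layer against the round layer (median -0.26), and 1 rose in the flat layer against the round layer (median 0.02). As shares these were 25.0% higher and 25.0% lower for hypertrophic against flat, beside 6.12% and 5.22% of all genes. The 12.5% higher in each of the others stand beside 12.4% of all genes for hypertrophic against round and 8.39% for flat against round, so 1 of 8 was near the background. The fit with the muscle score called 0 of 8 for hypertrophic against flat (2 higher and 0 lower at an unadjusted p under 0.05 in limma) with the median at 0.37 and 6 of 8 positive. In the same fit 0 of 8 passed for flat against round, with a median of -0.71 and 0 of 8 positive (0 higher and 2 lower at an unadjusted p under 0.05). For hypertrophic against round it called 1 higher and 3 lower.

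Plin2, the droplet coat protein present in most cell types, had signals of 2152, 1214 and 1542 in the round layer, 2017, 1268 and 1032 in the flat layer and 3339, 2126 and 2040.1 in the hypertrophic layer. All hypertrophic values were above the flat values, while the hypertrophic and round layers overlapped, the round array of litter 1 being high. The hypertrophic layer was 1.75-fold higher than the flat layer (0.81 ± 0.14, adjusted p = 0.0033), without loss when any 1 array was left out, and 1.52-fold higher than the round layer (0.61 ± 0.14, adjusted p = 0.0078). The second call was lost without the round or the hypertrophic array of litter 2, at 0.50 to 0.58. Within each litter the hypertrophic array was the highest of the 3.

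Cidea, a droplet fusion protein known from brown adipocytes, had signals of 339, 86.8 and 116 in the round layer, 469.6, 332 and 641 in the flat layer and 35.1, 21.4 and 182 in the hypertrophic layer. Every hypertrophic value lay below every flat value, and flat and round values overlapped. The hypertrophic layer was 5.81-fold lower than the flat layer (-2.54 ± 0.46, adjusted p = 0.0038), and the call held without any 1 array. In the flat layer it rose against the round layer by 1.44 ± 0.46 (adjusted p = 0.0479), a call lost without any 1 flat array or without the round array of litter 2 or 3 or the hypertrophic array of litter 2, with differences of 0.84 to 1.57. Cidea was the 1 member highest in the flat layer, a pattern of 1.90% of all genes. Its flat minus round difference turned to -0.89 in the fit with the muscle score (adjusted p = 0.621).

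Plin4, a coat protein of adipocytes and muscle, had signals of 342, 125 and 167 in the round layer, 518, 248 and 365 in the flat layer and 115, 118 and 210.1 in the hypertrophic layer. It followed the same course, with all hypertrophic values below all flat values (-1.20 ± 0.31, 2.3-fold lower, adjusted p = 0.0270) and no call for flat minus round (0.82 ± 0.31, adjusted p = 0.0970). The hypertrophic call was lost without any 1 flat array or the hypertrophic array of litter 1 or 2 (-1.35 to -0.77), and without the round array of litter 1 Plin4 passed as higher in the flat layer. Muscle markers moved in the same directions as Cidea and Plin4 in both comparisons, and with their score as covariate neither gene passed between the hypertrophic and flat layers.

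Adipoq, the adipocyte hormone adiponectin, had signals of 1043, 414 and 262 in the round layer, 781, 137 and 541 in the flat layer and 65.2, 660.4 and 186 in the hypertrophic layer. Arrays of 1 layer differed by more than the layers did, and the highest array came from a different litter in the hypertrophic layer than in the others. Hypertrophic minus round was -1.12 ± 0.72 (adjusted p = 0.2880), with a standard error above that of every other member. Cidec, the droplet protein of white adipocytes, lay below the filter, with signals of 6.87 to 138.

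Dgat1, which makes triglyceride from diacylglycerol, ranged from 574 to 1253 and rose in the hypertrophic layer against the flat layer (0.52 ± 0.15, adjusted p = 0.0468), with no overlap. It was lost in 7 of the 9 fits without 1 array, which left out the round array of litter 2 or any flat or hypertrophic array, with differences of 0.42 to 0.63, and its probe set is of a class that can bind several transcripts. The unrelated acyltransferase Dgat2 was at -0.58 ± 0.23, and the lipases Pnpla2 and Lipe, which start the breakdown of stored triglyceride, were at -0.31 ± 0.18 and -0.04 ± 0.26. None of these 3 passed in any comparison.

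The adipocyte markers that passed were Car3 and Slc2a4. Of 17 listed, 14 were named on the array and 8 were above the filter. In the flat layer 2 of 8 rose against the round layer (median 0.05), Car3 by 1.18 and Slc2a4 by 1.30, and both are also genes of skeletal muscle. In the hypertrophic layer 0 passed against the flat layer (median -0.31, with 0 higher and 2 lower at an unadjusted p under 0.05 in limma) and 1, Car3, rose against the round layer (median 0.01). The higher markers were 25.0% for flat against round and 12.5% for hypertrophic against round, beside 8.39% and 12.4% of all genes. The summed signal of the list was 25227 to 38380 in the round layer, 38084 to 59228 in the flat layer and 28894 to 38398 in the hypertrophic layer. Car3 alone gave 10393 to 17532, 27233 to 41662 and 15896 to 25164 in these layers. The mean log2 value of the list, each gene centred on its own mean, was 0.52, -0.20 and -0.04 on the round arrays. It was 0.33, -0.31 and 0.01 on the flat arrays and -0.37, 0.30 and -0.24 on the hypertrophic arrays, so the layers overlapped. Of markers below the filter, Lep ranged from 3.12 to 20.5, Ucp1 from 4.32 to 114 and Pparg from 20.6 to 229.6. Others on the list passed the filter, with Cebpa at 234 to 569.5, Retn at 86.8 to 449, Adipoq at 65.2 to 1043 and Fabp4 at 7398 to 15873. The part of adipocytes in the values of Cidea, Plin4 and Adipoq was not tested.

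**Figure D3:**
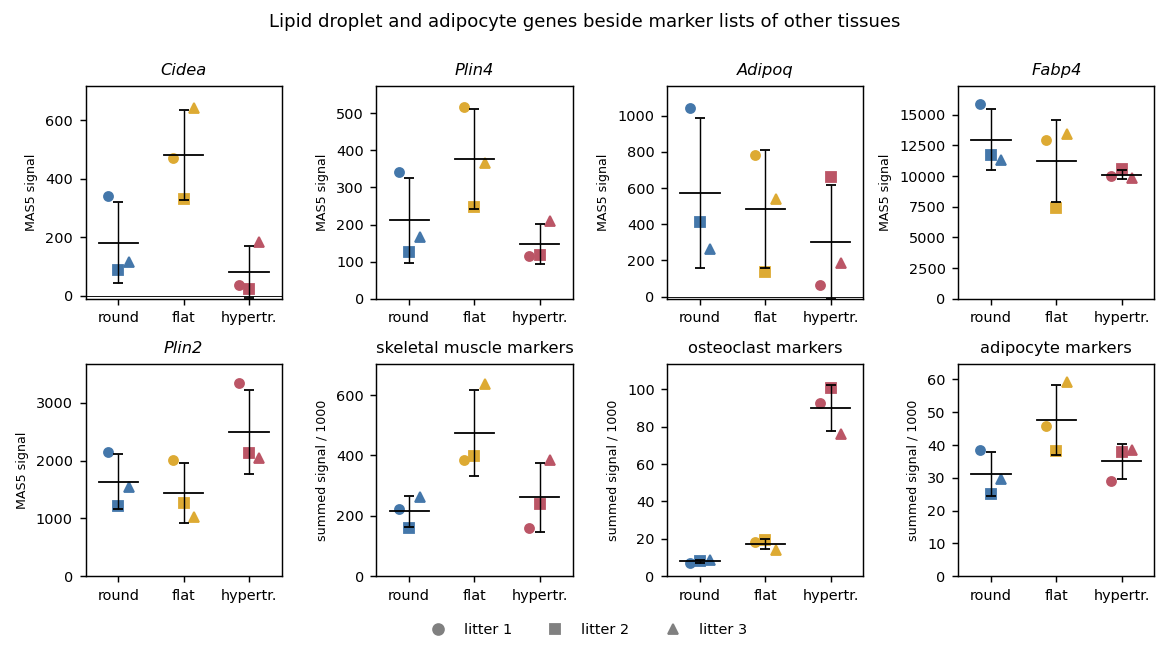
MAS5 signal in arbitrary units of 5 storage and carrier genes, and summed signal divided by 1000 of 3 marker lists (y axes), by layer (x axis), 1 point per array with the symbol giving the litter; lines are means and bars the SD (n = 3). Cidea, Plin4 and the skeletal muscle sum have their highest mean in the flat layer, Plin2 and the osteoclast sum have theirs in the hypertrophic layer, and Adipoq spreads widely within each layer.

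Many, but not all, markers of cells at the bone front rose with the members that were highest in the hypertrophic layer. Of 10 tested osteoclast markers, 9 rose in the hypertrophic layer against each other layer (median 2.60 against flat and 3.16 against round), with a summed signal of 7201 to 8827 in the round layer, 14276 to 19263 in the flat layer and 76295 to 100432 in the hypertrophic layer. Of 15 macrophage markers, 7 rose and 1 fell in the hypertrophic layer against the round layer, with sums of 16771 to 18956 in the round layer, 18935 to 22836 in the flat layer and 28548 to 37089 in the hypertrophic layer. Of 16 endothelial markers, 9 rose and 1 fell against the flat layer, and 3 rose and 1 fell against the round layer, with sums of 21339 to 22935 in the round layer, 16934 to 19405 in the flat layer and 25595 to 27824 in the hypertrophic layer. Lpl and Plin2 are also known from macrophages, and the part of these cells in the results was not tested.

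Set side by side, the role groups had different shares of members on the positive side. For hypertrophic minus round, 14 of 17 sterol synthesis enzymes were positive, against 5 of 12 genes of fatty acid synthesis and modification and 2 of 8 of droplets and storage. The medians were 0.38, -0.13 and -0.26, where all genes had 0.01, and the called members were 4 higher and 0 lower, 3 higher and 1 lower, and 1 higher and 0 lower. For flat minus round, 15 of 17 sterol enzymes were positive (median 0.34), against 7 of 12 (median 0.04) and 4 of 8 (median 0.02). Without the round array of litter 1 these medians were 0.36, 0.06 and 0.35. The positive counts were then 16 of 17, 7 of 12 and 6 of 8. For hypertrophic minus round the medians without that array were 0.41, -0.05 and -0.02, with 15, 5 and 4 positive. The distance between the sterol and droplet medians for flat minus round thus depended on that array. For hypertrophic minus flat the counts were 9 of 17, 8 of 12 and 2 of 8, and in the fit with the muscle score they were 9 of 17, 4 of 12 and 6 of 8, which turns the order of the fatty acid and droplet groups. The difference between groups itself was not tested. No member was highest in the round layer or lowest in the flat layer by both comparisons, patterns that 6.05% and 1.08% of all genes showed.

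**Figure D4:**
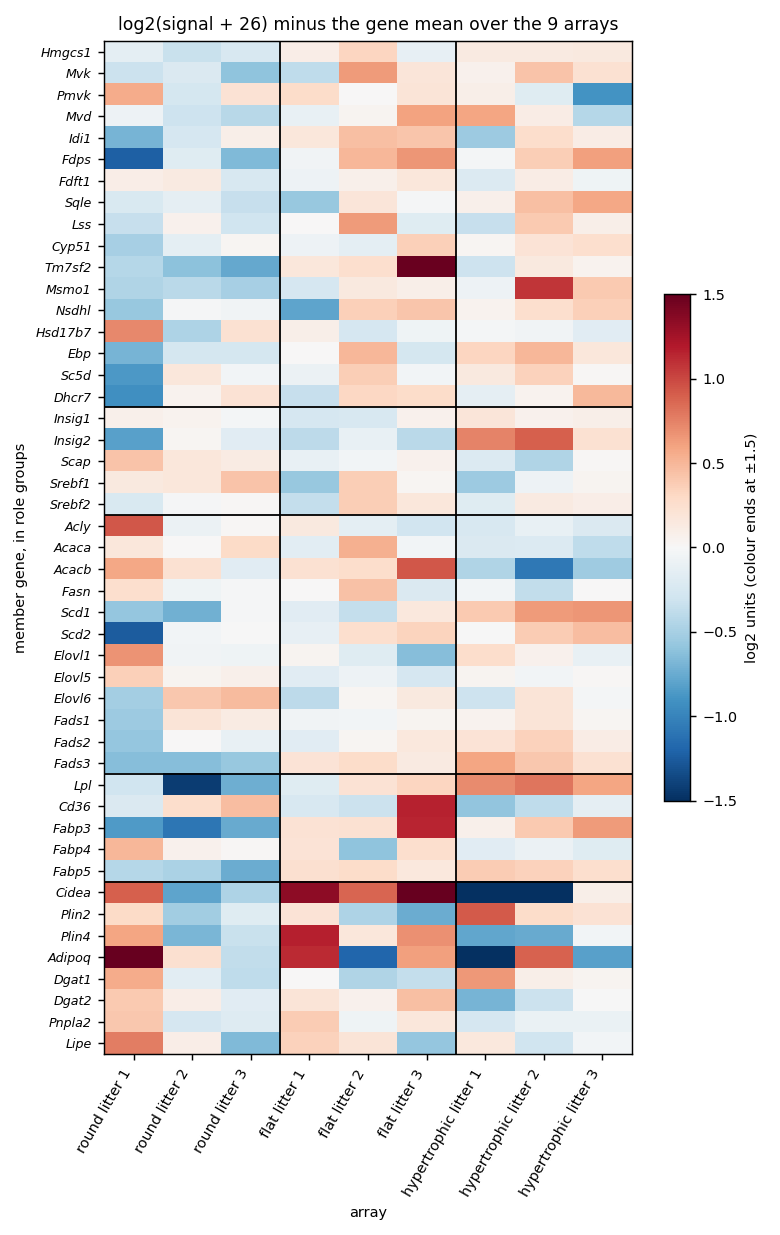
Centred log2(signal + 26) of the 47 tested members (rows of the map, grouped by role) on the 9 arrays (columns), with colour from -1.5 or lower (blue) to 1.5 or higher (red). Sterol enzymes in the top block are mostly blue on the round arrays, and the round array of litter 1 differs from the other 2 round arrays in many genes, among them Scd2, Acly and Adipoq.

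Medians over genes were also taken array by array. The median of the 17 sterol enzymes, each centred on its own mean, was -0.43, -0.22 and -0.24 on the round arrays, -0.07, 0.31 and 0.18 on the flat arrays and 0.03, 0.26 and 0.15 on the hypertrophic arrays. All round arrays were below the arrays of the other layers. The 8 droplet and storage genes gave -0.47, -0.20 and -0.02 on the hypertrophic arrays and 0.58, -0.20 and -0.35 on the round arrays, which overlapped, and the litter 1 round array was the highest.

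Among partner genes of sterol synthesis none rose. Of 8 tested among 13 listed genes of sterol synthesis, uptake and SREBP processing outside the set, 0 rose and 2 fell in the flat layer against the round layer (median -0.23), and 0 rose and 2 fell in the hypertrophic layer against the round layer (median -0.23). The genes were Stard4, a cytosolic sterol carrier (-0.45 ± 0.14 and -0.63 ± 0.14), and Cyb5r3, which passes electrons to cytochrome b5 for desaturation (-0.97 ± 0.13 and -0.93 ± 0.13). Between hypertrophic and flat layers 0 of 8 passed, with 1 higher and 1 lower at an unadjusted p under 0.05 in limma. The 25% lower in each comparison with the round layer stand beside 8.64% of all genes for flat and 12.7% for hypertrophic.

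Several genes of cholesterol efflux and transport rose in the hypertrophic layer. Of 10 tested among 15, 4 rose and 2 fell against the flat layer (median 0.27), and 5 rose and 1 fell against the round layer (median 0.23), while 0 rose and 1 fell in flat against round. All genes had 6.12% higher and 5.22% lower against the flat layer, and 12.4% and 12.7% against the round layer. With the muscle score 0 of 10 passed against the flat layer (3 higher and 2 lower at an unadjusted p under 0.05 in limma), and without the round array of litter 1, 3 rose and 1 fell against the round layer. Of 15 macrophage markers, 7 rose and 1, Mrc1, fell in the hypertrophic layer against each other layer. The part of macrophages in these values was not tested. The sterol exporter Abca1 gave 2129, 2996 and 2409 in the round layer, 3086, 1932 and 1877 in the flat layer and 5323, 5284 and 3961 in the hypertrophic layer. Its hypertrophic values lay above all others, by 1.10 ± 0.18 against flat (adjusted p = 0.0023) and 0.95 ± 0.18 against round (adjusted p = 0.0025). Abcg1, its partner in export, rose by 0.97 ± 0.17 against flat, the lysosomal lipase Lipa by 0.64 ± 0.17, while the sterol hydroxylase Cyp27a1 was 1.97-fold lower (-0.98 ± 0.24). Lipa was lowest in the flat layer, and all its hypertrophic values lay below all its round values (-0.25, adjusted p = 0.3170).

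In other fatty acid synthesis, activation and elongation genes, 9 of 18 were tested. Against the round layer 1 rose and 0 fell in the flat layer, and 5 rose and 1 fell in the hypertrophic layer (median 0.44), or 3 and 0 without the round array of litter 1. Between hypertrophic and flat layers 2 rose and 2 fell. The 11.1% higher for flat against round stand beside 8.39% of all genes. For hypertrophic against round 55.6% were higher and 11.1% lower, beside 12.4% and 12.7%. For hypertrophic against flat 22.2% were higher and 22.2% lower, beside 6.12% and 5.22%. Acyl-CoA synthetases, which activate fatty acids, differed among themselves: Acsl3 rose for flat against round (1.12 ± 0.19) and lower in the hypertrophic than in the flat layer (-0.74 ± 0.19), Acsl4 was higher in the hypertrophic than in the round layer (0.87 ± 0.26), and Acsl5 was higher in the hypertrophic than in the flat layer (0.72 ± 0.14). Thrsp, a promoter of lipogenesis in liver and fat, fell in the hypertrophic layer against the flat layer (-1.24 ± 0.27).

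Several fatty acid oxidation genes were higher in the flat and hypertrophic layers than in the round layer. Of 17 tested among 19, 6 rose and 0 fell in flat against round (median 0.41), 5 rose and 0 fell in hypertrophic against round (median 0.34), and 0 rose and 1 fell in hypertrophic against flat (median -0.11). As shares, 35.3% were higher for flat against round and 29.4% for hypertrophic against round, beside 8.39% and 12.4% of all genes. The 5.88% lower for hypertrophic against flat stand beside 5.22%. Ppara, the nuclear receptor that switches on oxidation, gave 41.8, 26.1 and 175 in the round layer, 277, 239.5 and 624 in the flat layer and 80.8, 152 and 210.3 in the hypertrophic layer. All flat values lay above all round values and the flat array of litter 3 was highest, with a flat minus round difference of 2.07 ± 0.34 (adjusted p = 0.0011) and -1.18 ± 0.34 for hypertrophic minus flat (adjusted p = 0.0416). Pdk4, which spares glucose when fat is burnt, rose against the round layer in the hypertrophic layer by 1.22 ± 0.22 and in the flat layer by 1.04 ± 0.22. Acadl, a dehydrogenase of the oxidation spiral, rose in the flat layer (0.88 ± 0.18), and the carnitine carrier Slc25a20 in the hypertrophic layer (0.79 ± 0.16). Many oxidation genes are abundant in muscle, whose markers rose in the flat layer. With the muscle score as covariate 0 of 17 passed for flat against round (2 higher and 1 lower at an unadjusted p under 0.05 in limma), and 5 rose and 0 fell for hypertrophic against round. Fewer of all genes also passed for flat against round in that fit, and the part of muscle in these values was not tested.

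Triglyceride synthesis, droplet and lipolysis partners had 17 of 19 tested, of which 2 rose and 1 fell in flat against round, 2 rose and 1 fell in hypertrophic against flat, and 4 rose and 0 fell in hypertrophic against round (median -0.11). The first 2 comparisons each had 11.8% higher and 5.88% lower. All genes had 8.39% and 8.64% for flat against round, and 6.12% and 5.22% for hypertrophic against flat. For hypertrophic against round the 23.5% higher stand beside 12.4%. Vldlr, a lipoprotein receptor that works beside lipoprotein lipase, gave 1649, 1989.7 and 1709 in the round layer, 5527, 4698 and 2565 in the flat layer and 9028, 6797 and 4318 in the hypertrophic layer. Its hypertrophic and flat values lay above all round values. Differences were 1.84 ± 0.19 for hypertrophic minus round (3.58-fold, adjusted p = 1.99e-05), 1.18 ± 0.19 for flat minus round (adjusted p = 0.0011) and 0.66 ± 0.19 for hypertrophic minus flat (adjusted p = 0.0436). Fabp7, the brain-type binding protein, rose in flat against round (1.18 ± 0.29), Hilpda, an inhibitor of droplet lipolysis induced by low oxygen, rose in hypertrophic against round (1.02 ± 0.23), and the glycerol phosphate enzyme Gpd1 fell in hypertrophic against flat (-1.43 ± 0.35).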

How the data were processed

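Newborn tibial growth plates were hybridised to 9 Affymetrix arrays, 3 layers from each of 3 litters of 9 to 10 pups. The authors deposited 1 MAS5 intensity for each of 45101 probe sets, made with Affymetrix Expression Console per the submitters' processing notes; versions are not given in the sources used here. Every array had a 2% trimmed mean of 500.003, and array medians were 123.1 to 151.6. MAS5 uses mismatch probes and scales each array to a common mean, so a shift shared by most genes would not be seen. The number of arrays limits the precision.

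Of the probe sets, 64 were controls, 34945 had 1 gene symbol in GEO's platform annotation, 932 had several and 9160 had none. Symbols were updated by gene ID for 34741 probe sets, which gave 18193 genes. Each gene was represented by its probe set of highest mean log2 intensity, and 11313 genes above the median of all non-control probe sets were tested. The values log2(intensity + 26), where 26 is the 20th percentile of all values, were fitted with limma 3.58.1 in R 4.3.3 (lmFit, eBayes with a variance trend) on layer and litter, with Benjamini-Hochberg adjustment over all tested genes and a threshold of 0.05. The script was tested on simulated data. Tables and figures were made with Python 3.11.15, pandas 2.3.3 and matplotlib 3.10.9.

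The labels state 3 litters, each dissected into the 3 layers, and number the biological replicates 1 to 3 in each layer. Arrays with the same replicate number were taken as the same litter, which the titles do not state. Deviations from the layer means correlated at 0.167 to 0.517 between arrays of the same litter (9 pairs) and at -0.434 to 0.0815 between arrays of different litters (18 pairs). No 2 arrays held identical values. The muscle score is the mean log2 value of the 22 muscle markers on an array. Alternatives covered the pseudocount, the filter, the block, the scaling, the choice of probe set, the variance trend, the muscle score as covariate, and leaving out arrays.

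The members and lists were chosen with earlier results of these data known. All members are accounted for, with every value for those of each role group that passed and had the largest differences, or that stood against their group, and for up to 4 called genes of each other list. Promoter letters came from RefSeq's table, which had no entry used here for Cidea, Dgat1, Dgat2, Fabp4, Fabp5, Fads1, Fdft1, Fdps, Lpl, Scd1, Scd2 and Sqle.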

Additional observations from a re-analysis of the deposited data

How the results depend on the processing

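Litter was a block because the litters pair the arrays. With no replicate block, the members higher and lower were 6 and 0 for flat against round, 1 and 2 for hypertrophic against flat, and 9 and 0 for hypertrophic against round, and the counts over all genes were 405 and 530, 356 and 197, and 862 and 962, where the blocked fit gave 949 and 977, 692 and 591, and 1405 and 1435. Without the block, calls of Idi1, Scd2, Elovl1 and Cidea for flat against round, of Scd1, Plin2, Plin4 and Dgat1 for hypertrophic against flat, and of Sqle, Acacb, Scd2 and Plin2 for hypertrophic against round were lost. With litter as a random replicate block, 0 members were lower for flat against round and 2 for hypertrophic against round. With the muscle score as covariate, 1 member was higher for flat against round and 1 was lower (Acly in place of Elovl1), 0 were higher and 0 lower for hypertrophic against flat, and 8 were lower for hypertrophic against round; over all genes hypertrophic against flat gave 134 and 141. In that fit the flat minus round difference of Cidea was -0.89, the opposite sign, and the cause was not tested. The mean of all probe sets gave 5 members higher for flat against round, 0 lower for hypertrophic against round (Acacb was not tested in that fit), and an opposite sign for Msmo1 (-0.053, hypertrophic minus round), whose second probe set is dim. Over all genes 644 were then lower for flat against round. The 1 member lower for flat against round became 0 with no filter, with arrays centred on their medians, without the variance trend, and when round litter 1 and flat litter 3 were left out together. Of the members lower for hypertrophic against flat, 1 passed with no filter and 1 with the filter at the 60th percentile. That stricter filter, at a mean log2 value of 7.91, left Cidea (7.61) and Acacb (7.88) untested. Acacb, the 1 member lower for hypertrophic against round, lost that call with no filter and with a pseudocount 4 times as large. The count was also 0 with the stricter filter, where Acacb was not tested. Leaving out each array in turn gave 5 to 10 members higher and 0 to 1 lower for flat against round, 1 to 6 and 1 to 3 for hypertrophic against flat, and 9 to 14 and 0 to 4 for hypertrophic against round. The lowest count of higher members for flat against round came without the flat array of litter 2, and that for hypertrophic against flat without the hypertrophic array of litter 1. The count of members higher for hypertrophic against round, 12, was 9 to 15 under the alternatives run. Of 624 recomputed differences of called members, 502 kept their direction and call, 120 kept their direction without the call and 2, those of Cidea and Msmo1 above, changed sign. The median of the sterol enzymes was 0.27 to 0.40 for flat minus round and 0.33 to 0.50 for hypertrophic minus round, and that of droplet and storage genes changed sign among the alternatives in each comparison, at -0.71 to 0.35 for flat minus round, -0.57 to 0.37 for hypertrophic minus flat and -0.55 to 0.06 for hypertrophic minus round. Intensities near the filter, such as those of Cidea, Plin4 and Acacb, limit the precision of their differences.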
